A study of Mus musculus with 10 samples.

Results

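The mitochondrial carriers are the proteins that move ADP, ATP, phosphate, amino acids, nucleotides, cofactors and iron through the inner membrane of mitochondria, and the uncoupling proteins belong to the same family. Their mRNAs were followed in cochlear tissue of hypothyroid and euthyroid mice. Members were taken by symbol, as genes named Slc25a with a number and the genes Ucp1, Ucp2 and Ucp3, which gave 49 of the 18725 genes measured. Of these, 42 had enough counts to be tested and 7 did not.

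The mice were of strain C57BL/6J and were sampled at postnatal day 10. The 5 hypothyroid libraries are from pups whose mothers drank water with methimazole at 0.05%, sodium perchlorate monohydrate at 1.0% and sucrose at 5.0% from embryonic day 17 and through lactation. The 5 euthyroid libraries are from pups whose mothers received vehicle over the same time. Whether the vehicle held sucrose was not known here, so a part of sucrose cannot be told apart from that of the drugs. Methimazole stops the thyroid from making its hormone, and perchlorate keeps iodide out of the gland. The tissue was the outer sulcus, an epithelium at the lateral side of the cochlear duct that holds the root cells, dissected with the spiral ligament beneath it. The labels do not say whether a library came from 1 animal or from pooled ones, and the litters were not known here, so p-values measure only the spread among these libraries and a litter effect cannot be told apart from the treatment. The extraction text of the labels names cartilage and another age, while the other labels name the cochlea. The inner ear gene Otor was abundant in both groups (6059.6 ± 797 CPM in hypothyroid and 5479 ± 258 CPM in euthyroid libraries, SD, n = 5 each). It is 1 of the 10 spiral ligament fibrocyte markers summed below, and the other 9 were lower in hypothyroid libraries. Cartilage genes were abundant too, with 8 chondrocyte markers summing to 18074 to 19724 CPM in hypothyroid and 45115 to 51721 CPM in euthyroid libraries. Of the 7 chondrocyte markers tested, 5 were lower and 2 higher.

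Carriers share a fold of paired helices and are inserted into the inner membrane by a dedicated translocase. Most work as exchangers or shuttles for 1 class of compounds, so the set of carriers that a cell expresses helps to set what its mitochondria can trade with the cytosol. Thyroid hormone is known to raise respiration in many tissues. In rodents, Ucp1 of brown fat, Ucp3 of muscle and the ADP/ATP carriers of liver have been described as responsive to it. In the cochlear lateral wall, mitochondria feed the ion pumps that keep the potassium of the endolymph high.

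As a check of the labels, the thyroid hormone target Hr had 5.58 ± 0.309 CPM in hypothyroid and 111 ± 8.57 CPM in euthyroid libraries (SD, n = 5 each). Libraries held 19298300 to 19407700 counts in the hypothyroid and 19782000 to 20064100 counts in the euthyroid group. The groups differed widely, since 71.8% of the 14862 genes tested were called by edgeR (quasi-likelihood test, adjusted p under 0.05), and in 57.9% the libraries of the groups did not overlap. Levels in CPM are counts scaled to the library size after TMM adjustment, and TPM are also scaled to gene length. Summed markers of root cells were lower, at 3351 to 4059 CPM in hypothyroid and 8043 to 8788 CPM in euthyroid libraries, with 6 of 9 markers lower and 2 higher. Those of spiral ligament fibrocytes (9 of 10 lower, all but Otor) spanned 13227 to 15787 CPM in hypothyroid and 28328 to 34179 CPM in euthyroid libraries. Those of bone (8 of 8 lower) spanned 32.2 to 57.9 CPM in hypothyroid and 1057 to 1629 CPM in euthyroid libraries. Summed macrophage markers (9 of 10 higher) spanned 451 to 595 CPM in hypothyroid and 286 to 327 CPM in euthyroid libraries, and melanocyte markers (7 of 8 higher) 943 to 1780 CPM in hypothyroid and 505 to 716 CPM in euthyroid libraries. The part of these shifts in the results below was not tested, and in bulk tissue fewer cells of a type cannot be told apart from less RNA per cell. Summed Y-linked genes were at 4.55 to 5.52 CPM in hypothyroid replicates 2 and 5 and euthyroid replicate 5. They were at 167 CPM in hypothyroid replicate 3 and at 279 to 322 CPM in the other libraries. Both groups thus held libraries with low and with high values, and hypothyroid replicate 3 lay between.

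Most carriers differed between the groups, and with TMM scaling more of them were lower than higher. Of the 42 tested, 21 fell, 12 rose and 9 did not pass. The share called, 78.6%, stood beside 71.8% of all genes tested, the share lower, 50.0%, beside 34.1%, and the share higher, 28.6%, beside 37.7%. In CPM with TMM scaling the groups did not overlap in 30 carriers, 21 lower and 9 higher, or 71.4%. The share of all genes tested was 57.9% (28.5% lower and 29.4% higher). A change of at least 2-fold was called in 7 carriers (16.7%), 5 lower and 2 higher, near the 17.2% of all genes tested (7.91% lower and 9.25% higher). The median log2 fold change was -0.28 for the carriers and 0.04 for all genes tested.

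The balance of directions depended on how libraries were scaled. TMM factors were 1.07 to 1.12 in hypothyroid and 0.894 to 0.936 in euthyroid libraries. With library sizes alone 19 carriers were higher and 14 lower, and the medians were -0.014 for carriers and 0.30 for all genes. On TPM 17 carriers were higher and 17 lower, and on FPKM 17 were higher and 14 lower. Overlap between the groups depended on scaling too. On TPM the groups overlapped for Slc25a3, Slc25a5, Slc25a18 and Slc25a46, which in CPM were lower without overlap. For Slc25a28, Slc25a32, Slc25a36 and Slc25a53, which overlapped in CPM, every hypothyroid library was higher on TPM. The gap between the median of carriers and that of all genes was -0.32 as reported and -0.36 to -0.26 in the 22 alternatives. Among called carriers 36.4% were higher as reported, and 57.6% with library sizes alone. For all genes these shares were 52.5% and 74.7%.

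**Figure D1:**
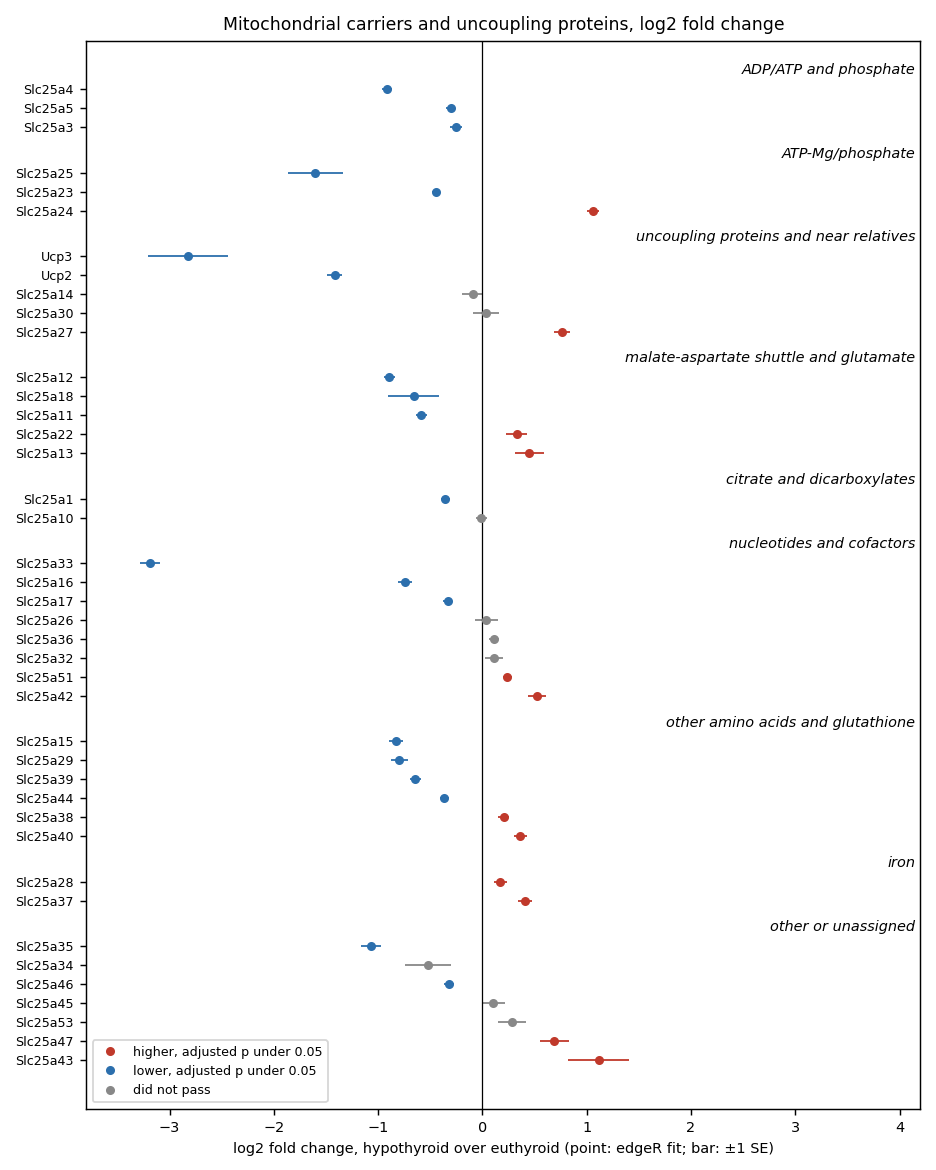
Log2 fold change of tested carriers (hypothyroid over euthyroid, x axis), with genes ordered by the class of compound carried; points are edgeR estimates and bars ±1 SE. Slc25a33 and Ucp3 lie farthest to the left at -3.18 and -2.83, and Slc25a43 and Slc25a24 farthest to the right at 1.11 and 1.06. Ucp3 and Slc25a43 passed the count filter only through the group where they were high, which favours the direction shown.

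The summed level of all 49 members, per length, was 2964 ± 130.4 TPM in hypothyroid and 3780 ± 103 TPM in euthyroid libraries (SD, n = 5 each). Each hypothyroid library, at 2883 to 3193 TPM, lay below every euthyroid library, at 3661 to 3900 TPM. The hypothyroid sum in TPM was 78.4% of the euthyroid sum. The size of this gap depended on the measure. The members held 0.243% ± 0.0104 of all counts in hypothyroid and 0.277% ± 0.00615 in euthyroid libraries. With TMM scaling they summed to 2216 ± 77.8 CPM in hypothyroid and 3036 ± 85.0 CPM in euthyroid libraries (SD, n = 5 each). Slc25a4 made up 46.6% of the net difference in TPM, Ucp2 36.5% and Slc25a33 7.63%. Slc25a3, Slc25a4 and Slc25a5 together held 50.3% ± 0.773 of the carrier TPM in hypothyroid and 50.3% ± 0.305 in euthyroid libraries (SD, n = 5 each).

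The same 4 genes led the family in both groups. Slc25a4 had 620.2 ± 28.4 TPM in hypothyroid and 1000.4 ± 34.7 TPM in euthyroid libraries (SD, n = 5 each) and was the highest in both. Slc25a3 came next in both, with 555 ± 45.0 TPM in hypothyroid and 565 ± 20.6 TPM in euthyroid libraries, an overlap within the spread. Ucp2 was the third in euthyroid and the fourth in hypothyroid libraries, where Slc25a5, with 317 ± 6.38 TPM in hypothyroid and 335 ± 11.8 TPM in euthyroid libraries, stood above it. Further down the list the order changed more. Slc25a33 was at rank 36 of 49 in hypothyroid and rank 10 in euthyroid libraries, Slc25a25 at rank 23 in hypothyroid and rank 12 in euthyroid libraries, and Slc25a24 at rank 13 in hypothyroid and rank 28 in euthyroid libraries.

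**Figure D2:**
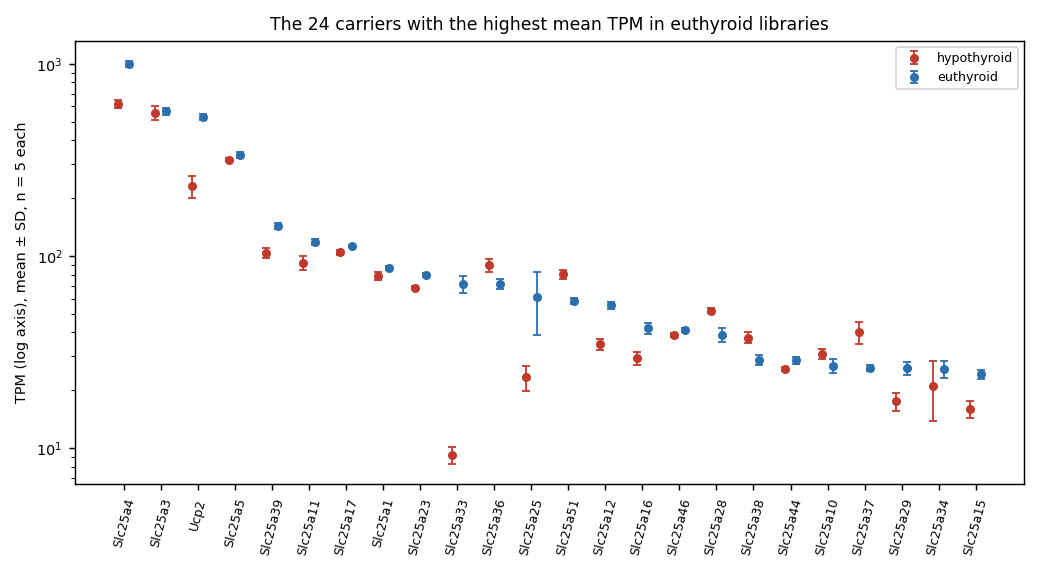
Mean TPM ± SD (n = 5 each, logarithmic y axis) of the 24 carriers with the highest euthyroid level, hypothyroid (red) left of euthyroid (blue). Slc25a33 shows the widest gap, at 9.20 TPM in hypothyroid and 71.5 TPM in euthyroid libraries, and Slc25a51 and Slc25a37 are among those higher in hypothyroid libraries.

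The carriers of ATP export and phosphate import were lower with TMM scaling, and of these only Slc25a4 kept its call with library sizes alone. Slc25a4 encodes the ADP/ATP carrier typical of muscle and heart, which exchanges cytosolic ADP for newly made ATP. It had 286, 314, 306, 319 and 286 CPM in the hypothyroid libraries, against 544, 559.9, 565, 609.5 and 572 CPM in the euthyroid libraries. The groups lay far apart, and Slc25a4 fell 1.89-fold (log2 fold change -0.92 with SE 0.048 and edgeR adjusted p = 2.44e-10). Slc25a5 encodes the second ADP/ATP carrier, typical of dividing cells. It had 145, 149.8, 157, 152 and 146 CPM in the hypothyroid libraries, against 180.1, 187, 179, 189 and 191 CPM in the euthyroid libraries. Its groups did not overlap either, but the fall was small (log2 fold change -0.31 with SE 0.04 and edgeR adjusted p = 6.02e-06). Library sizes alone ended the call (log2 fold change -0.041, adjusted p = 0.344, in a range of 1.15e-15 to 0.344 over the alternatives). Slc25a3, which imports phosphate for ATP synthesis, had 286, 305, 300.2, 339 and 270.0 CPM in the hypothyroid libraries, against 345, 364, 348, 368 and 362 CPM in the euthyroid libraries. Its log2 fold change was -0.25 (edgeR adjusted p = 7.85e-04), and the sign turned to 0.013 with library sizes alone and to 0.0095 on FPKM. On TPM its call was lost as well (limma, adjusted p = 0.613). Slc25a31, an ADP/ATP carrier of testis, had 32 counts over the hypothyroid and 8 over the euthyroid libraries and was not tested.

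The makeup of the ADP/ATP carriers shifted. A ratio of 2 genes within a library does not depend on the scaling, apart from the added pseudocount, which matters for genes of low level. The log2 ratio of Slc25a4 to Slc25a5 (on TPM + 0.1) was 0.94, 1.02, 0.92, 1.03 and 0.92 in the hypothyroid libraries, against 1.55, 1.54, 1.62, 1.64 and 1.54 in the euthyroid libraries (difference -0.61, two-sided exact permutation p = 0.00794, adjusted p = 0.00907). Slc25a4 made up 66.2% ± 0.855 of the TPM of the pair in hypothyroid and 74.9% ± 0.624 in euthyroid libraries (SD, n = 5 each). In all 8 such pairs were compared, and p-values were adjusted over them. The smallest p that 5 libraries against 5 allow is 0.00794. Ratios of unrelated genes were not compared, so how often a ratio separates in these data is not known here. Among single genes tested, 57.9% did not overlap in CPM.

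Carriers of ATP-Mg and phosphate moved in opposite directions. These carriers, which have calcium-binding domains, change the total pool of adenine nucleotides in the matrix. Slc25a24 had 53.7, 48.5, 57.4, 50.5 and 54.9 CPM in the hypothyroid libraries, against 26.2, 23.5, 26.9, 24.5 and 26.3 CPM in the euthyroid libraries. All 5 hypothyroid libraries were higher, 2.08-fold in the fit (log2 fold change 1.06 with SE 0.06 and edgeR adjusted p = 4.87e-10). Slc25a25 had 25.7, 28.1, 27.5, 35.3 and 24.03 CPM in the hypothyroid libraries, against 53.9, 54.6, 104, 128 and 87.03 CPM in the euthyroid libraries. The groups did not overlap, but the euthyroid libraries spread widely, with replicates 1 and 2 at about the same low level and replicates 3 to 5 above them. Slc25a25 fell 3.04-fold (log2 fold change -1.60 with SE 0.26 and edgeR adjusted p = 4.84e-04). The third gene, Slc25a23, averaged 86.1 ± 2.19 CPM in hypothyroid and 117 ± 0.986 CPM in euthyroid libraries (SD, n = 5 each; log2 fold change -0.44 with SE 0.037 and edgeR adjusted p = 4.34e-08).

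The log2 ratio of Slc25a24 to Slc25a25 was 1.00, 0.70, 0.97, 0.45 and 1.11 in the hypothyroid libraries, against -1.11, -1.29, -2.02, -2.46 and -1.81 in the euthyroid libraries (difference 2.59, two-sided exact permutation p = 0.00794, adjusted p = 0.00907). Slc25a24 was thus the more abundant of the pair per length in each hypothyroid library and the less abundant in each euthyroid one. On TPM both genes were without overlap, in opposite directions, so this ratio had to reach the smallest p and adds no separate evidence. The log2 ratio of Slc25a23 to Slc25a25 also differed (difference 1.09, two-sided exact permutation p = 0.00794, adjusted p = 0.00907). The summed TPM of the ATP-Mg group moved less than its members, at 134 ± 2.75 TPM in hypothyroid and 158 ± 20.4 TPM in euthyroid libraries (SD, n = 5 each), and the 2 ranges met, with 131.5 to 139 TPM in hypothyroid and 138.5 to 186 TPM in euthyroid libraries. Slc25a41 and Slc25a54, relatives of this group, had 4 and 4 counts over the hypothyroid libraries and 15 and 1 over the euthyroid libraries, and were not tested.

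**Figure D3:**
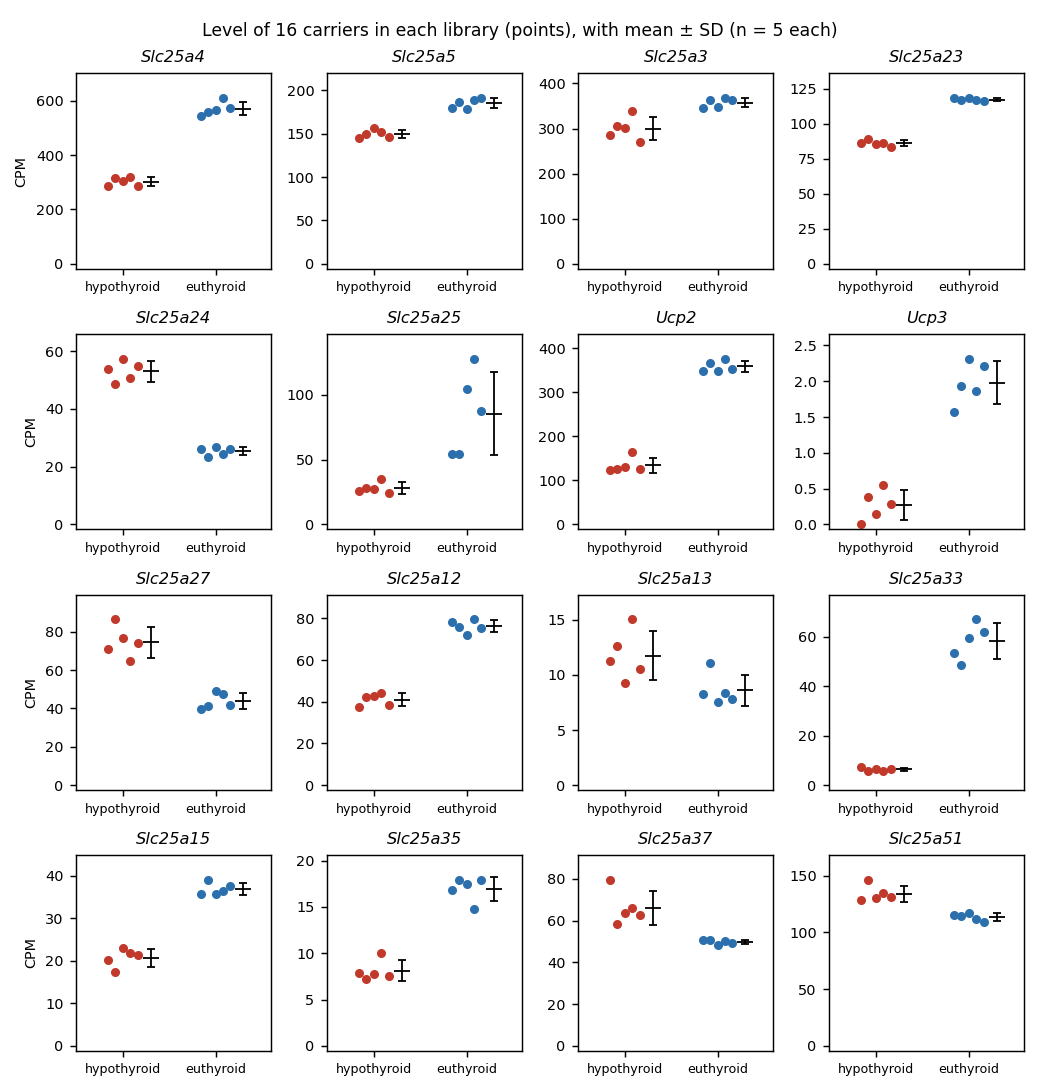
CPM of 16 carriers in each library, hypothyroid (red) left of euthyroid (blue), with mean ± SD (n = 5 each) in black. Slc25a33, Ucp2, Slc25a4 and Slc25a12 lie apart between groups with narrow spreads, whereas the 5 euthyroid values of Slc25a25 run from 53.9 to 128 CPM.

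Of the uncoupling proteins, the 2 that could be tested fell. Ucp2, the broadly expressed member, which exports small dicarboxylates from the matrix, had 125, 127, 131, 164 and 125 CPM in the hypothyroid libraries, against 349.7, 367, 349.6, 376 and 352 CPM in the euthyroid libraries. Hypothyroid replicate 4 stood above the other hypothyroid libraries and still far below every euthyroid one. Ucp2 fell 2.67-fold (log2 fold change -1.42 with SE 0.07 and edgeR adjusted p = 1.32e-10), and its TPM fell by 298. Ucp2 is also expressed in macrophages, and the summed markers of these cells, given above, were higher in the hypothyroid libraries, opposite to Ucp2, and their part in this result was not tested. Dnajb13, which fell too (log2 fold change -1.27), overlaps 4.36% of the exonic bases of Ucp2.

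Ucp3, the member typical of muscle, had 0, 0.3804, 0.145, 0.554 and 0.283 CPM in the hypothyroid libraries, against 1.57, 1.94, 2.31, 1.86 and 2.22 CPM in the euthyroid libraries, from 29 counts over the hypothyroid and 179 over the euthyroid libraries. All hypothyroid libraries were lower and 1 had no count (log2 fold change -2.83 with SE 0.38 and edgeR adjusted p = 9.99e-06). Ucp3 passed the count filter only through the euthyroid group, so a call as lower was favoured. On TPM with a pseudocount of 1 the log2 fold change was -1.15, as low values are pulled toward 0. Muscle markers were low, with 10 of them summing to 3.41 to 3.99 CPM in hypothyroid and 3.55 to 6.70 CPM in euthyroid libraries, and Myh1 and Myh4 at 0 in the hypothyroid ones. Of the 3 muscle markers tested, Ryr1 fell with Ucp3 (log2 fold change -3.00), Tnnt3 rose (2.35) and Mylpf did not pass, and the part of these in the result was not tested. Ucp1, the heat-producing protein of brown fat, had 3 counts over the hypothyroid and 5 over the euthyroid libraries, or 0, 0.0951, 0.0482, 0 and 0 CPM in the hypothyroid libraries, against 0.05403, 0.0539, 0, 0.113 and 0.0554 CPM in the euthyroid libraries, and was not tested. Of 6 fat markers, Adipoq had 0 counts over the hypothyroid and 13 over the euthyroid libraries, Fabp4 had 2 over the hypothyroid and 55 over the euthyroid libraries, Plin1 had 5 over the hypothyroid and 2 over the euthyroid libraries, and Lep and Cfd had at most 1. Their sum, 4.35 to 6.17 CPM in hypothyroid and 22.5 to 25.5 CPM in euthyroid libraries, was mostly Cidea (5.46 ± 0.776 CPM in hypothyroid and 22.9 ± 1.34 CPM in euthyroid libraries, SD, n = 5 each), and its part was not tested. Ucp2 and Ucp3 are neighbours on chromosome 7, 6904 bases apart on GRCm38.p6, where Ucp3 spans 100472991 to 100486432 and Ucp2 100493337 to 100499629.

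The near relatives of the uncoupling proteins did not follow. Slc25a27, known as the neuronal UCP4, had 71.1, 86.5, 76.6, 64.7 and 74.2 CPM in the hypothyroid libraries, against 39.8, 41.3, 48.9, 47.6 and 41.9 CPM in the euthyroid libraries. Every hypothyroid library was higher, and Slc25a27 rose 1.70-fold (log2 fold change 0.77 with SE 0.078 and edgeR adjusted p = 4.82e-07). Summed neuronal markers were higher too, at 44.6 to 62.4 CPM in hypothyroid and 25.3 to 35.5 CPM in euthyroid libraries, with 2 of 4 tested markers higher and 2 lower, and their part was not tested. Slc25a14 and Slc25a30 did not pass (log2 fold changes -0.10 and 0.036, edgeR adjusted p = 0.401 and 0.81). Library sizes alone turned Slc25a14 to 0.17 (adjusted p = 0.133, in a range of 0.0545 to 0.896 over the alternatives). They also gave a call for Slc25a30 as higher (0.30, adjusted p = 0.0467, in a range of 0.0351 to 0.957), as did FPKM (adjusted p = 0.0351), while its sign turned in 3 fits without 1 library.

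The malate-aspartate shuttle, which carries the electrons of cytosolic NADH into mitochondria, had its main carriers lower. Slc25a12, the aspartate/glutamate carrier known as aralar, had 37.4, 42.4, 42.6, 44.4 and 38.4 CPM in the hypothyroid libraries, against 78.3, 75.8, 72.3, 79.6 and 75.4 CPM in the euthyroid libraries. No values overlapped, and Slc25a12 fell 1.86-fold (log2 fold change -0.89 with SE 0.055 and edgeR adjusted p = 1.20e-09). Slc25a11, which exchanges oxoglutarate for malate in the same shuttle, averaged 60.1 ± 4.54 CPM in hypothyroid and 90.2 ± 3.12 CPM in euthyroid libraries (SD, n = 5 each; log2 fold change -0.59 with SE 0.054 and edgeR adjusted p = 1.25e-07). Slc25a13, the aspartate/glutamate carrier of liver known as citrin, had 11.3, 12.6, 9.31, 15.05 and 10.5 CPM in the hypothyroid libraries, against 8.27, 11.1, 7.505, 8.34 and 7.82 CPM in the euthyroid libraries. It rose (log2 fold change 0.45 with SE 0.14 and edgeR adjusted p = 0.00807), although euthyroid replicate 2 lay among the hypothyroid values. Between Slc25a12 and Slc25a13 the log2 ratio was 1.67, 1.70, 2.13, 1.51 and 1.81 in the hypothyroid libraries, against 3.20, 2.72, 3.23, 3.20 and 3.21 in the euthyroid libraries (difference -1.35, two-sided exact permutation p = 0.00794, adjusted p = 0.00907).

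Of the glutamate carriers, Slc25a22 rose slightly with overlapping groups, at 22.2 ± 1.77 CPM in hypothyroid and 17.7 ± 3.001 CPM in euthyroid libraries (SD, n = 5 each; log2 fold change 0.33 with SE 0.10 and edgeR adjusted p = 0.0098). Slc25a18 was low, with 56 counts over the hypothyroid and 76 over the euthyroid libraries (log2 fold change -0.66 with SE 0.24 and edgeR adjusted p = 0.0246), and lost its call in 5 of 18 alternatives, among them those without hypothyroid replicate 1 (adjusted p = 0.0719) or euthyroid replicate 4 (0.0541) and library sizes alone (-0.40, adjusted p = 0.143). Between Slc25a22 and Slc25a18 the log2 ratio was 5.42, 4.54, 4.10, 4.81 and 4.34 in the hypothyroid libraries, against 3.84, 3.95, 3.63, 3.58 and 3.34 in the euthyroid libraries (difference 0.97, two-sided exact permutation p = 0.00794, adjusted p = 0.00907), without overlap. The difference was 0.74 with a pseudocount of 1, and 0.78 without hypothyroid replicate 1, where Slc25a18 had 6 counts. The citrate carrier Slc25a1, which supplies carbon for fatty acid synthesis, averaged 48.8 ± 1.61 CPM in hypothyroid and 62.6 ± 1.47 CPM in euthyroid libraries (SD, n = 5 each; log2 fold change -0.36 with SE 0.043 and edgeR adjusted p = 2.40e-06), a call that did not hold under library sizes alone (adjusted p = 0.0733, in a range of 8.04e-15 to 0.0733 over the alternatives). The dicarboxylate carrier Slc25a10 had a log2 fold change of -0.0093 (edgeR adjusted p = 0.888), but 0.25 with library sizes alone (adjusted p = 0.00186, in a range of 0.00186 to 0.956 over the alternatives). Slc25a21, which carries oxoadipate, had 43 counts over the hypothyroid and 56 over the euthyroid libraries and was not tested.

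The carriers of pyrimidine nucleotides split sharply. Slc25a33 had 7.25, 5.75, 6.61, 5.77 and 6.55 CPM in the hypothyroid libraries, against 53.3, 48.5, 59.6, 66.99 and 62.1 CPM in the euthyroid libraries. It fell 9.09-fold, the widest change among the tested members (log2 fold change -3.18 with SE 0.10 and edgeR adjusted p = 7.45e-13), with -3.26 to -2.63 over the alternatives. Its relative Slc25a36 averaged 155 ± 9.62 CPM in hypothyroid and 144 ± 5.39 CPM in euthyroid libraries (SD, n = 5 each) and did not pass (log2 fold change 0.11 with SE 0.048 and edgeR adjusted p = 0.0552), and was called higher with library sizes alone (log2 fold change 0.37, adjusted p = 1.27e-05, in a range of 1.27e-05 to 0.148 over the alternatives) and without hypothyroid replicate 2 (0.0196) or euthyroid replicate 2 (0.0468). Between Slc25a33 and Slc25a36 the log2 ratio was -3.21, -3.30, -3.17, -3.36 and -3.31 in the hypothyroid libraries, against -0.089, -0.36, 0.071, 0.25 and 0.11 in the euthyroid libraries (difference -3.27, two-sided exact permutation p = 0.00794, adjusted p = 0.00907). Per length the pair was about even in euthyroid libraries, and Slc25a33 was at 0.104 of Slc25a36 in hypothyroid ones. Both genes separated on TPM in opposite directions, so the p of this ratio was fixed by the single genes. The gene Gm13068 overlaps 14.9% of the exonic bases of Slc25a33, and without strand their reads cannot be told apart.

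Carriers of cofactors went both ways. Slc25a42, which brings coenzyme A into the matrix, had 16.6, 18.7, 15.2, 19.4 and 16.5 CPM in the hypothyroid libraries, against 11.3, 13.8, 11.7, 11.8 and 11.8 CPM in the euthyroid libraries and rose 1.43-fold (log2 fold change 0.52 with SE 0.086 and edgeR adjusted p = 6.33e-05). Slc25a51, the NAD carrier, had 128, 146, 131, 135 and 131 CPM in the hypothyroid libraries, against 116, 115, 117, 112 and 109 CPM in the euthyroid libraries and rose by a small amount (log2 fold change 0.24 with SE 0.045 and edgeR adjusted p = 2.00e-04). In both genes all hypothyroid libraries lay above all euthyroid ones. Slc25a16, a gene also linked to coenzyme A, fell (log2 fold change -0.74 with SE 0.065 and edgeR adjusted p = 6.96e-08). Slc25a17 of the peroxisomal membrane had a log2 fold change of -0.33. Its call was lost with library sizes alone (edgeR adjusted p = 0.148) and on FPKM (limma, adjusted p = 0.106). Slc25a26, the carrier of S-adenosylmethionine, and Slc25a32, the carrier of folate, did not pass (log2 fold changes 0.036 and 0.11, edgeR adjusted p = 0.776 and 0.264). Both were called higher with library sizes alone (0.30 and 0.38).

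Among carriers of other amino acids and glutathione, 4 fell and 2 rose. Slc25a15, the ornithine carrier of the urea cycle, had 20.3, 17.4, 23.05, 21.8 and 21.3 CPM in the hypothyroid libraries, against 35.8, 39.0, 35.7, 36.3 and 37.5 CPM in the euthyroid libraries and fell 1.78-fold without overlap (log2 fold change -0.83 with SE 0.07 and edgeR adjusted p = 4.72e-08). Slc25a29, a carrier of basic amino acids, and Slc25a44, of branched-chain amino acids, had log2 fold changes of -0.80 and -0.36. The call for Slc25a44 was lost with library sizes alone (edgeR adjusted p = 0.0752) and on FPKM (limma, adjusted p = 0.0833), in a range of 2.93e-13 to 0.0833 over the alternatives. Slc25a38, which brings in glycine for heme synthesis, had 33.1, 39.4, 35.97, 35.5 and 37.7 CPM in the hypothyroid libraries, against 30.7, 32.5, 32.1, 29.97 and 32.6 CPM in the euthyroid libraries and rose slightly (log2 fold change 0.20 with SE 0.056 and edgeR adjusted p = 0.00475).

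The glutathione carriers moved apart. Slc25a39 averaged 57.2 ± 3.86 CPM in hypothyroid and 89.4 ± 3.21 CPM in euthyroid libraries (SD, n = 5 each; log2 fold change -0.64 with SE 0.051 and edgeR adjusted p = 2.57e-08). Slc25a40 had 25.3, 22.7, 25.8, 23.1 and 24.1 CPM in the hypothyroid libraries, against 19.6, 17.9, 18.8, 19.2 and 18.6 CPM in the euthyroid libraries (log2 fold change 0.36 with SE 0.06 and edgeR adjusted p = 6.31e-05). The log2 ratio of Slc25a39 to Slc25a40 was 2.10, 2.25, 1.98, 2.31 and 2.04 in the hypothyroid libraries, against 3.22, 3.18, 3.24, 3.14 and 3.24 in the euthyroid libraries (difference -1.07, two-sided exact permutation p = 0.00794, adjusted p = 0.00907). Slc25a39 was the more abundant per length in every library. Here too both genes separated on TPM in opposite directions, which fixed the p of the ratio. Slc25a2, a second ornithine carrier, had 19 counts over the hypothyroid and 7 over the euthyroid libraries and was not tested.

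The iron carriers rose. Slc25a37, mitoferrin-1, which supplies iron for heme in red cell precursors, had 79.5, 58.5, 63.5, 66.1 and 62.9 CPM in the hypothyroid libraries, against 50.7, 50.6, 48.5, 50.3 and 49.2 CPM in the euthyroid libraries. Replicate 1 was the highest of the hypothyroid libraries, and the lowest of them still exceeded all euthyroid ones (log2 fold change 0.41 with SE 0.068 and edgeR adjusted p = 7.52e-05). Slc25a28, mitoferrin-2 of other tissues, averaged 25.1 ± 1.04 CPM in hypothyroid and 22.3 ± 1.65 CPM in euthyroid libraries with overlap (SD, n = 5 each; log2 fold change 0.17 with SE 0.063 and edgeR adjusted p = 0.0243), and lost its call in 7 of 22 alternatives, among them those without hypothyroid replicate 2 or euthyroid replicate 1, 2 or 3 (adjusted p = 0.0539, 0.0870, 0.0814 and 0.0851). Their log2 ratio did not pass (difference 0.19, two-sided exact permutation p = 0.135, adjusted p = 0.135), but did without hypothyroid replicate 2 (difference 0.25, adjusted p = 0.0397). Summed red cell markers, 9 genes in all, spanned 495 to 714 CPM in hypothyroid and 441 to 812 CPM in euthyroid libraries, with 0 of 8 tested markers higher and 2 lower.

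**Figure D4:**
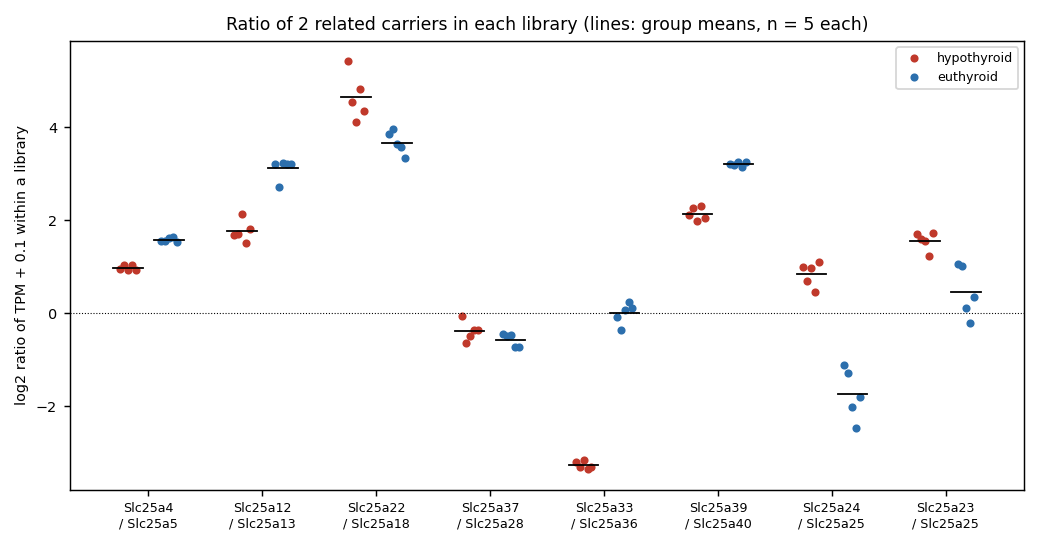
Log2 ratio of TPM + 0.1 between 2 related carriers in each library (y axis), hypothyroid (red) left of euthyroid (blue), with lines at the group means (n = 5 each). Only the pair Slc25a37 and Slc25a28 overlaps between groups, and the widest gap is in Slc25a33 over Slc25a36, at means of -3.27 in hypothyroid and -0.0032 in euthyroid libraries. Ratios of unrelated genes were not compared, and 57.9% of single genes tested did not overlap in CPM.

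Carriers of other or unassigned substrate included a 2-fold fall and a 2-fold rise. Slc25a35 had 7.904, 7.18, 7.71, 10.1 and 7.59 CPM in the hypothyroid libraries, against 16.9, 17.9, 17.4, 14.8 and 17.9 CPM in the euthyroid libraries. It fell 2.096-fold (log2 fold change -1.07 with SE 0.10 and edgeR adjusted p = 1.22e-07), though 31.3% of its exonic bases overlap Rangrf, which rose (log2 fold change 0.35). Slc25a47, known from liver, had 4.02, 4.75, 3.71, 4.62 and 4.24 CPM in the hypothyroid libraries, against 3.08, 2.59, 2.09, 2.48 and 2.99 CPM in the euthyroid libraries and rose 1.61-fold (log2 fold change 0.69 with SE 0.14 and edgeR adjusted p = 3.98e-04). Slc25a43 rose at a low level, from 97 counts over the hypothyroid and 38 over the euthyroid libraries (log2 fold change 1.11 with SE 0.29 and edgeR adjusted p = 0.00293). It passed the count filter only through the hypothyroid group, so a call as higher was favoured. Slc25a46, an outer membrane protein that acts in mitochondrial dynamics, had a log2 fold change of -0.32 and lost its call under library sizes alone (-0.055, adjusted p = 0.241, in a range of 1.32e-11 to 0.376 over the alternatives). It lost its call by limma on TPM (adjusted p = 0.0974 and 0.0950 with pseudocounts 1 and 0.1) and on FPKM (adjusted p = 0.376) too. Slc25a34, Slc25a45 and Slc25a53 did not pass (-0.52, 0.10 and 0.28, edgeR adjusted p = 0.0573, 0.421 and 0.0744). Slc25a34 was called lower with the replicate block (-0.58, adjusted p = 0.0048), by DESeq2 (0.0326), with DESeq2 size factors (0.0489) and without hypothyroid replicate 2 (0.0263) or 4 (0.0203), in a range of 0.0048 to 0.3 over the alternatives. Slc25a45 and Slc25a53 were called higher with library sizes alone (0.37 and 0.55, adjusted p = 0.00847 and 0.00188) and on TPM, in ranges of 0.00369 to 0.674 and 0.00188 to 0.179 over the alternatives. Slc25a48 had 20 counts over the hypothyroid and 4 over the euthyroid libraries, without overlap, and was not tested.

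Promoter sequences were looked up beside these changes. RefSeq's table of GRCm38.p6 held 48 promoters of 38 of the 49 members. The 250 bases before the start used in that table are given 5′ to 3′ on the strand of the gene for 3 genes with large falls and for Slc25a24, the member that rose most among those with at least 1 CPM. For Ucp2 that start lies inside the gene span given above, so the last bases of its window fall within the span. Capitals mark matches to the motifs searched.
Slc25a33: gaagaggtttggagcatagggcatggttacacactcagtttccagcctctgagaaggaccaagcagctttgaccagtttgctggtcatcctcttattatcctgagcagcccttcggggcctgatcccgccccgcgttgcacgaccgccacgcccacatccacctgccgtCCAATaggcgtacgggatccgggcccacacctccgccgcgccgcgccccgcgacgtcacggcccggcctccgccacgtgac
Ucp3: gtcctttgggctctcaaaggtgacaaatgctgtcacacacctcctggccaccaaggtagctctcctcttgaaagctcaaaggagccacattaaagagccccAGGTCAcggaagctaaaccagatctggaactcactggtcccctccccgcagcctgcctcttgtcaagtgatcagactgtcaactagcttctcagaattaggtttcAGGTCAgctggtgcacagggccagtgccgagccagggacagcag
Ucp2: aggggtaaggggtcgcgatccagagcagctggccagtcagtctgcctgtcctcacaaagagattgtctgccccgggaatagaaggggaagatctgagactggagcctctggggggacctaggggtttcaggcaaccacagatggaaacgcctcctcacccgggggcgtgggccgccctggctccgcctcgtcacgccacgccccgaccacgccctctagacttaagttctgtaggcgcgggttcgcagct
Slc25a24: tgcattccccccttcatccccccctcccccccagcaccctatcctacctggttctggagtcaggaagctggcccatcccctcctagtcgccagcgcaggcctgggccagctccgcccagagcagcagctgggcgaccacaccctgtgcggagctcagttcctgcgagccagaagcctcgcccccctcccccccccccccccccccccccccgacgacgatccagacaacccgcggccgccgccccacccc
They lie at chr4:149774268-149774517 on the minus strand for Slc25a33, and on the plus strand at chr7:100472741-100472990 for Ucp3, chr7:100493108-100493357 for Ucp2 and chr3:109122899-109123148 for Slc25a24.

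The motifs, searched on both strands, were AGGTCA, the hexamer bound by nuclear receptors, its direct repeat after 4 further bases, as in thyroid hormone response elements, the estrogen-related receptor element TCAAGGTCA, which contains that hexamer, the NRF1 site, the ETS site CCGGAAGT, CCAAT and TATAAA. In Ucp3 the capitals are 2 AGGTCA hexamers at bases 102 to 107 and 207 to 212, counted from 1 at the 5′ end, and in Slc25a33 they are 1 CCAAT at bases 170 to 174. Ucp2 and Slc25a24 held no match in this window. AGGTCA was found in 6 of 38 members (15.8%), beside 15.8% of 27025 genes in the table, and CCAAT in 18 members (47.4%), beside 37.5%. TATAAA was found in 2 members (5.26%), beside 14.3%. The other 4 motifs were found in 0 members, and in 0.0148% (thyroid hormone element), 0.422% (estrogen-related receptor), 0.877% (NRF1) and 3.23% (ETS) of all genes. These letters are a description of the window and no test of binding.

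Other genes of mitochondrial transport were counted beside the carriers, from lists made by function. Their shares stand beside 71.8% of all genes tested called, 34.1% lower and 37.7% higher. All 6 enzymes of the shuttles for NADH fell (median log2 fold change -1.001). Gpd2, the mitochondrial glycerol phosphate dehydrogenase, averaged 42.4 ± 2.43 CPM in hypothyroid and 257 ± 25.5 CPM in euthyroid libraries, its cytosolic partner Gpd1 4.66 ± 1.18 CPM in hypothyroid and 18.9 ± 2.65 CPM in euthyroid libraries, and Mdh1, the cytosolic malate dehydrogenase that works with Slc25a11 and Slc25a12, 185 ± 20.3 CPM in hypothyroid and 323 ± 16.5 CPM in euthyroid libraries (SD, n = 5 each; edgeR adjusted p = 2.22e-13, 1.23e-08 and 3.95e-08). All 5 genes of the pyruvate carrier and the outer membrane channels fell (median -0.52), with Mpc2 at -0.74, Mpc1 at -0.68 and Vdac2 at -0.52. Under library sizes alone 3 of these 5 were lower, and 5 of the 6 shuttle enzymes.

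Of 8 calcium uniporter and calcium exchange genes 4 (50.0%) fell and 4 did not pass (median -0.31), a share called below that of all genes, with Letm1 at -0.94, Mcur1 at -0.61 and Smdt1 at -0.72, while the pore gene Mcu did not pass (-0.075, edgeR adjusted p = 0.321). Library sizes alone left 4 of the 8 lower and called the other 4 higher. Of 10 genes for inserting carriers into the membrane 6 (60.0%) fell, 2 (20.0%) rose and 2 did not pass (median -0.16), with Tomm40 at -0.24, Tomm70a at -0.18 and Tomm20 at -0.27. Their direction turned with library sizes alone, which gave 0 lower and 5 higher.

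Of 10 genes taken as a measure of mitochondrial content 7 (70.0%) fell, 1 rose and 2 did not pass (median -0.18). Citrate synthase (Cs) had -0.53, Timm23 -0.68 and Mfn2 -0.37. Under library sizes alone 3 were lower and 4 higher. Of 11 regulators of mitochondrial biogenesis 5 (45.5%) rose, 2 (18.2%) fell and 4 did not pass (median 0.12), and 63.6% were called. Library sizes alone gave 7 higher and 2 lower. Esrra, which encodes a nuclear receptor of energy metabolism, had -0.92, the coactivator gene Ppargc1a -0.67, and Nrf1 0.41 (edgeR adjusted p = 7.51e-07, 1.54e-05 and 9.13e-06).

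**Figure D5:**
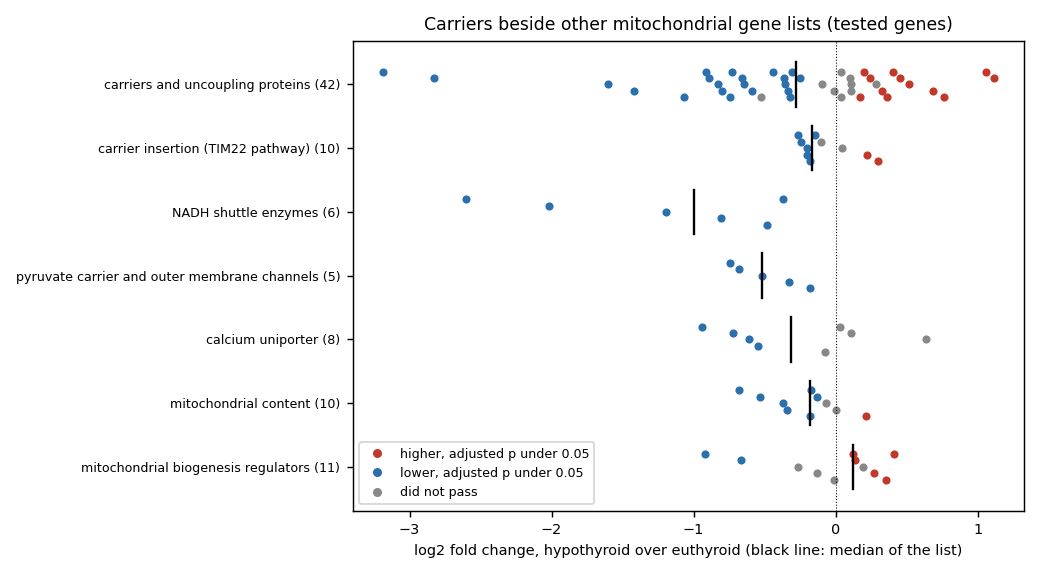
Log2 fold change (hypothyroid over euthyroid, x axis) of each tested gene of the carriers and of 6 other mitochondrial lists, with the number of genes in brackets and a black line at the median. The medians run from -1.001 for NADH shuttle enzymes to 0.12 for biogenesis regulators. The carriers, the longest list at 42 genes, have the widest range, from -3.18 to 1.11, and a range grows with list length.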

How the data were processed

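Per the labels' protocols, polyadenylated RNA was sequenced as single-end reads on a BGI instrument; strand was not stated. The tools named, per the submitters' processing notes, are RSEM 1.2.12, Bowtie2 2.2.5 and HISAT2 2.0.4, with the build GRCm38.p6; their roles are not given. Per the file headers and values, the authors deposited expected counts per gene, TPM and FPKM, which adjust for length and library total, and a scaled signal (the estimated count rounded up and multiplied by 1 factor per library; 100% of values were whole within 0.001 after division). No column was left unmapped, and the authors' group means were not used.

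Expected counts were rounded. Genes were filtered with filterByExpr of edgeR 4.0.16 (minimum count 10), scaled with TMM factors, and tested over all 14862 genes with the quasi-likelihood test (robust, two-sided, group as the only term, Benjamini-Hochberg adjusted p under 0.05). Log2 fold changes are hypothyroid over euthyroid, and SE is the absolute log2 fold change over the square root of F. CPM uses TMM-adjusted library sizes. Counts were also simulated at the same library sizes, with 200 of 14786 genes changed, both up and down, and a single dispersion. All 200 (100%) were recovered, with 15 false calls. Far fewer genes changed there than in these data. The simulation therefore cannot show how the fit handles the group difference in TMM factors. Overlaps of exons were read from GENCODE M21 (GRCm38). Within groups the chi-square per gene was 5.30 to 15.6, above sampling noise, so no library was a duplicate. Alternatives used DESeq2 1.42.0 and limma 3.58.1 in R 4.3.3. Figures were drawn with matplotlib 3.10.9 under Python 3.11.15.

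Members and lists were chosen with earlier results of these data known. Some family members are not reported here. Values in every library are given for the 8 higher and 8 lower members with the largest change (adjusted p under 0.05, mean of at least 1 CPM, no overlap), and for Slc25a3, Slc25a4, Slc25a5, Slc25a12, Slc25a13, Slc25a37 and Ucp1 to Ucp3; of other lists, the 3 genes with the smallest adjusted p. Mcu and the genes that overlap a member were named after their values were seen. Otor was also named outside these rules.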

Additional observations from a re-analysis of the deposited data

Results flagged for a closer look

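In 100 groups of 5 libraries (42 carriers and 8 ratios in each group), 9 held a library that stood apart by Dixon's test, where chance gives about 5%. The ratios reuse the carriers, so these groups are not independent and the 5% is only a rough guide. Euthyroid replicate 2 stood apart in 4 of these. It had 11.1 CPM of Slc25a13, against 7.50 to 8.34 in the other euthyroid libraries, 153 CPM of Slc25a36, against 140.2 to 143, and 13.8 CPM of Slc25a42, against 11.3 to 11.8. The log2 ratio of Slc25a12 to Slc25a13 was 2.72 in that library, against 3.20 to 3.23, and draws on the same Slc25a13 level. Euthyroid replicate 3 had 0.169 CPM of Slc25a43, against 0.451 to 0.499 CPM.

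Hypothyroid replicate 4 had 164 CPM of Ucp2, against 125 to 131 CPM in the other hypothyroid libraries, and 10.1 CPM of Slc25a35, against 7.18 to 7.90 CPM. Hypothyroid replicate 2 had 46.0 CPM of Slc25a1, against 48.9 to 49.9 CPM, and 42.4 CPM of Slc25a10, against 47.3 to 48.1 CPM. All of these are differences among libraries of 1 group, and their source was not tested.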

How the results depend on the processing

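Of the 33 called carriers, 25 kept their direction and call in every one of up to 22 alternatives, among them Slc25a4, Slc25a12, Slc25a24, Slc25a25, Slc25a33, Ucp2 and Ucp3. Scaling mattered most. With library sizes alone 8650 of all genes were higher and 2928 lower, and 19 carriers were higher; limma gave 3115 and 3114 lower genes on TPM (pseudocounts 1 and 0.1) and 2652 on FPKM. Signs turned for Slc25a3 (0.013 with library sizes alone, 0.0095 on FPKM), for Slc25a10 (0.25 with library sizes alone, 0.10 with upper quartile factors, 0.0063 with a minimum count of 50, 0.21 and 0.22 on TPM, 0.24 on FPKM, 0.0039 with Y-linked expression as a covariate), and for Slc25a14 (0.17, 0.015, 0.13, 0.15 and 0.15 with library sizes alone, upper quartile factors, TPM and FPKM). Without single libraries, Slc25a10 took values from -0.045 to 0.024, with 0.011 without euthyroid replicate 1, Slc25a26 values from -0.031 (without euthyroid replicate 5) to 0.081, and Slc25a30 values up to 0.085, with -0.013, -0.037 and -0.017 without hypothyroid replicate 2 or euthyroid replicates 3 or 5. Of these 5 genes only Slc25a3 was called as reported; the cause was not tested. The ratio of Slc25a37 to Slc25a28 ranged over 0.11 to 0.25 without single libraries, and passed only without hypothyroid replicate 2 (exact permutation, adjusted p = 0.0397).

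Pairing of libraries by replicate number was not evident, though it was not tested. Same-numbered deviations correlated at -0.089 to 0.16, and 1 of 5 hypothyroid libraries matched its own number best. With the replicate block 11 carriers were higher and 22 lower. The sign-flip test of 5 pairs cannot go below 0.0625 (adjusted 0.0714), so the ratios could not pass it, at -0.61 (Slc25a4 to Slc25a5), -1.35 (Slc25a12 to Slc25a13), 0.97 (Slc25a22 to Slc25a18), -3.27 (Slc25a33 to Slc25a36), -1.07 (Slc25a39 to Slc25a40), 2.59 (Slc25a24 to Slc25a25) and 1.09 (Slc25a23 to Slc25a25). Whole reads recovered from the scaled signal, an alternative chosen after seeing the data, gave 10675 called genes with 12 carriers higher and 21 lower. DESeq2 gave 11 higher and 21 lower.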
